A study of Saccharomyces cerevisiae with 6 samples.

Results

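Nic96 contacts of heat-shocked wild-type (*wt*) *Saccharomyces cerevisiae* cells were taken as all peaks of the Nic96-myc ChIP-seq list at 37 °C, called against untagged cells, with a q-value under 0.05. The list held 993 such peaks of 1248 deposited ones, and of 1601 at the same threshold in the *wt* list and the list of *mft1Δ* cells, which lack part of the THO complex (*tho*), together. The study asked whether R-loops, in which RNA pairs with DNA, draw genes to nuclear pore complexes (NPCs), with heat shock (HS) as 1 of its conditions. The strain was BY4742 (*MATalpha his3Δ1 leu2Δ0 lys2Δ0 ura3Δ0*) with a *NIC96-13myc-KanMX* allele and the plasmid pRS313. Cells were cultured overnight at 30 °C, grown at 25 °C and shifted to 37 °C for 15 min by adding medium at 49 °C. The control was the same genotype and treatment without the tag, and both carried the *his3Δ1* deletion and pRS313. There was 1 library on each side, so no value below has a replicate check and no test compares conditions.

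The NPC is a channel of the nuclear envelope built from nucleoporins, and Nic96 is a scaffold nucleoporin of its inner ring. Contacts between chromatin and nucleoporins can be mapped by ChIP, and some yeast genes are found at the pore mainly when they are expressed. The yeast HS response is driven mainly by the transcription factor Hsf1, which activates chaperone genes through GAA repeats, and by Msn2 and Msn4, which activate general stress genes through CCCCT elements.

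The sequences under 8 summits are shown because the results below turn on their loci: the most enriched peak, HS genes, a long gene with several contacts, repeats inside genes, and a tRNA gene. Each is a stretch of 150 bases of the RefSeq R64 genome (sacCer3) on the strand of the named gene. Capitals mark 20 bases around the summit, except for *TRN1*, where they mark the 103 bases of the proline tRNA gene. The stretches are *RTT105* (chrV:367029-367178, forward strand), *HSP104* (chrXII:90532-90681, forward strand), *HSP82* (chrXVI:96496-96645, reverse strand), *SEN1* (chrXII:997640-997789, forward strand), *FLO11* (chrIX:391615-391764, reverse strand), *YRF1-7* (chrXVI:328-477, reverse strand), *YRF1-3* (chrVII:1090403-1090552, forward strand) and *TRN1* (chrI:139123-139272, forward strand).
RTT105: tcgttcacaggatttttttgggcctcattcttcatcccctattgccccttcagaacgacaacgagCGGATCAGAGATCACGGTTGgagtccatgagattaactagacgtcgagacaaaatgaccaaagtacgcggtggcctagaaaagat
HSP104: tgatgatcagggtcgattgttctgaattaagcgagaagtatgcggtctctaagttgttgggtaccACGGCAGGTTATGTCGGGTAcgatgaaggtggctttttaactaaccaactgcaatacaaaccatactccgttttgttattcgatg
HSP82: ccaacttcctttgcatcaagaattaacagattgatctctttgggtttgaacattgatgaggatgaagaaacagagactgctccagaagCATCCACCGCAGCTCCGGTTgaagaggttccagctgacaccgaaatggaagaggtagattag
SEN1: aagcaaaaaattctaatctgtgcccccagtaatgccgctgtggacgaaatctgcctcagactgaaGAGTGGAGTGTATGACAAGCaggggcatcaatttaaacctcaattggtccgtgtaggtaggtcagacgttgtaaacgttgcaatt
FLO11: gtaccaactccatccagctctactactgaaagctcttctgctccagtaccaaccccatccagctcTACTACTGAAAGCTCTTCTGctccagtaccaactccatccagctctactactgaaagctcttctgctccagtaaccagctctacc
YRF1-7: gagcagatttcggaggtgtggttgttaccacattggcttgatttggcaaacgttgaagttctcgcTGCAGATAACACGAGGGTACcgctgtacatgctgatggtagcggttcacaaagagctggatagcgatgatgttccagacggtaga
YRF1-3: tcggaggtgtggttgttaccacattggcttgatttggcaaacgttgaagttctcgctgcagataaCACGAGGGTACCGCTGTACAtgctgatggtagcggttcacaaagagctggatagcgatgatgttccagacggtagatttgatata
TRN1: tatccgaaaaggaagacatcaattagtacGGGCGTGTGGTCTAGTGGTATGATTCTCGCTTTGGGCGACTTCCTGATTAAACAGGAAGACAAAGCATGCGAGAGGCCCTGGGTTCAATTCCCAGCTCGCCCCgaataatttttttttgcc

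The GC content of these stretches lay between 43.3% at *HSP104* and 50% at *FLO11*. The 20 capitals of the *FLO11* stretch occur 3 times within it, as tandem copies of a coding repeat. The *YRF1-7* and *YRF1-3* stretches, from the ends of chromosomes XVI and VII, were identical over 141 aligned bases, and each occurred 10 times in the nuclear genome. The other 6 occurred once.

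Enrichment was low at most contacts. The fold enrichment at the summit, the value of the peak caller for tagged against untagged cells, had a median of 1.76 and lay between 1.27 and 4.40. It was 2 or more at 184 of the 993 peaks (18.5%) and 2.5 or more at 29 (2.92%). The −log10 of the q-value had a median of 2.57 and lay between 1.30 and 79.2. Fold enrichment and −log10 q ordered the peaks alike (Spearman's rho 0.861 over 993 peaks of 1 library pair, a description). At the threshold, the last peaks inside were those at *PKH1*, *POT1* and *PIK1*, all with a fold enrichment of 1.5 and a q of 0.0497, and the first outside were at *ERR1*, YML133C and *ZDS1*, with fold enrichments of 1.41, 1.29 and 1.55 and q from 0.0534 to 0.0546. A fold enrichment from a cell population cannot tell more cells with a contact from more signal per cell.

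**Figure D1:**
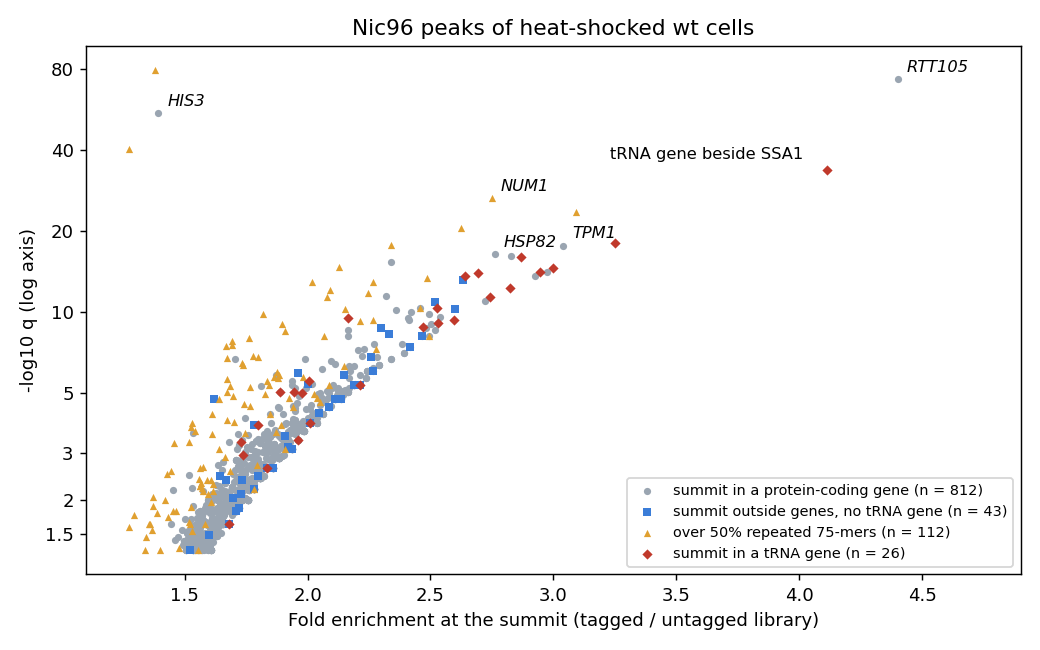
Fold enrichment at the summit against −log10 q (log axis) for the 993 Nic96 peaks of *wt* cells at 37 °C, by what lies at the summit. Most peaks sit below a fold enrichment of 2, *RTT105* and the tRNA gene beside *SSA1* stand apart at 4.40 and 4.11, and *HIS3* has a high −log10 q of 54.7 at a fold enrichment of 1.39.

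The 2 peaks of highest fold enrichment extended over Hsp70 genes, and 5 of the first 10 had their summit in a tRNA gene. The peak of highest fold enrichment, 4.40 with a −log10 q of 73.4, spanned 3072 bp (chrV:365622-368693) and covered all of *RTT105*, which encodes a chaperone of replication protein A. It began in the 3′ part of the Hsp70 gene *SSA4* and ended in *NUP157*, a nucleoporin gene. The next, at 4.11 and a −log10 q of 33.7, spanned 2321 bp (chrI:139047-141367) and covered 96.7% of the Hsp70 gene *SSA1*, but its summit lay in the neighbouring *TRN1*, and 44.1% of its 75-mers occur elsewhere in the genome. *TPM1*, the major tropomyosin that stabilises actin cables, had a peak of 1866 bp with a fold enrichment of 3.04 at 58.1% of the gene. Next to each other on chromosome IV, YDR215C had a fold enrichment of 2.97 and *ADR1*, an activator of glucose-repressed genes, 2.92. Another 4 of the 10 were centred in a protein-coding gene and 1 in neither kind of gene. The tRNA gene summits other than *TRN1* were nearest to *FAB1* (3.25), *NMA1* (3.0), *TAH11* (2.95) and *VOA1* (2.87), and the summit in neither was 600 bp from the subtelomeric *COS2* (3.09), in sequence that is wholly repeated.

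A different set of loci had a high −log10 q at a low fold enrichment. The highest of all, 79.2, belonged to a peak in the ribosomal DNA (chrXII:459206-459796) with a fold enrichment of 1.38, and a second ribosomal DNA peak reached 40.3 at 1.27. All 75-mers of both peaks recur in the genome. *HIS3*, an enzyme of histidine synthesis, was covered over its whole length by a peak of 675 bp whose −log10 q was 54.7 at a fold enrichment of 1.39. The strain carries the *his3Δ1* allele, and pRS313 is a *HIS3* plasmid that tagged and untagged cells share. The part of plasmid copies in this peak was not tested. The other marker genes, *LEU2*, *LYS2* and *URA3*, are deleted in the strain, so the absence of a peak there carries no information. No peak lay in *ACT1*, *HSP60* or *MFT1*. *NIC96* itself held no peak under the threshold and 1 deposited peak above it.

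Contacts were mostly in gene bodies. Of the 993 summits, 897 lay between the start and the stop codon of a nuclear protein-coding gene (90.3%, 95% exact binomial interval 88.3 to 92.1%), while such genes cover 72.8% of the nuclear genome. Intervals here and below cover the counting of peaks or genes only. A gene was counted as contacted when it held a summit, and 762 of 6002 genes were (12.7%, interval 11.9 to 13.6%). This 12.7% is the background against which the counts of gene groups are set. A single summit lay in 653 of these genes and 109 held 2 or more. The share in genes differed with fold enrichment. It was 94.9% of the 448 peaks from 1.5 to 1.75, 93.1% of the 331 from 1.75 to 2, 124 of the 155 from 2 to 2.5 and 44.8% of the 29 above (interval 26.4 to 64.3%). In the class below 1.5, 27 of 30 peaks were in genes, and 21 of the 30 were mostly repeated sequence.

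The 96 summits outside genes had a median fold enrichment of 1.97 (interval 1.88 to 2.09), against 1.75 (1.73 to 1.76) for those in genes. Of these, 26 lay in tRNA genes, with a median of 2.34 and a range from 1.68 to 4.11. They were in 26 of 275 nuclear tRNA genes (9.45%). Of 300-bp windows tiled over the nuclear genome 2.47% held a summit, and of those centred outside genes 1.04%, but these windows and tRNA genes differ in length. Another 17 of the 96 summits lay in annotated telomeres (median 2.0), 3 in replication origins, 2 in pseudogenes, 1 in a Ty element and 1 in ribosomal RNA, and 46 lay in no other feature, with a median of 1.86. By the genes on either side, 36 were between tandem genes, 27 between divergent genes, 10 between convergent genes and 23 outside the last gene of a chromosome. Per length this was 2.18, 2.53 and 1.92 summits per 100 kb of spacer, and 58.9 per 100 kb beyond the last gene, against 10.2 per 100 kb of gene length.

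Summits lay where the genome is GC-rich. In a window of 300 bp centred on the summit, GC content had a median of 42.7% (quartiles 40.3 and 45.3%), against 38% in windows tiled over the nuclear genome and 39.3% in those tiled over genes. Of the windows, 95.3% were above the genome median and 29.0% above its 90th percentile (44.3%). The difference was also present within genes. In genes of 600 bp or more, the window had a GC content above that of its own gene at 77.7% of 842 summits (interval 74.7 to 80.4%), by a median of 1.79 percentage points. Counted over the genome, 0.138% of tiled windows under 34% GC held a summit (9 of 6539), against 7.50% of those at 48% GC or more (89 of 1187). Windows centred outside genes had their highest share, 3.91%, at 42 to 44% GC, where windows in genes had 5.92%. The coverage of the untagged library by GC content was not analysed here, so its part in this pattern was not tested.

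**Figure D2:**
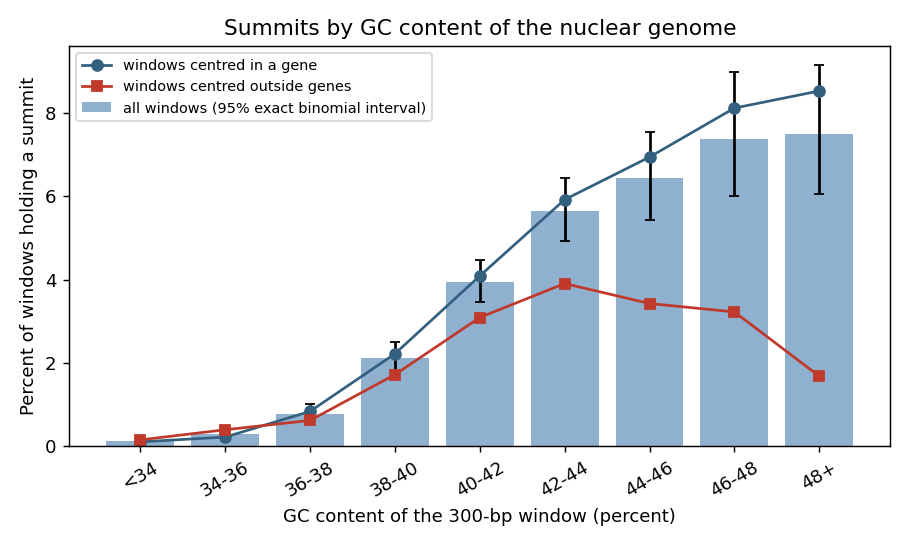
Percent of 300-bp windows of the nuclear genome that hold a summit, by GC content of the window, with bars and 95% exact binomial intervals for all windows and lines for windows centred inside and outside genes. The share goes from 0.138% below 34% GC to 7.50% at 48% or more, and the line for windows outside genes lies below that for genes from 36% GC upward.

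The same order held for whole genes. In the fifth of genes lowest in GC content (up to 37.3%), 46 of 1201 were contacted (3.83%), and in the highest (42.8% or more) 227 of 1201 (18.9%). Summits per 100 kb were 2.83 in the former and 21.6 in the latter, although the genes of the latter were shorter (median 894 against 1353 bp). The AT skew of the coding strand, the excess of A over T among both, had a median of 0.059 in summit windows in genes (interval 0.048 to 0.068) and 0.079 in windows tiled over genes, and the GC skew 0.033 against 0.036. Within the list, GC content and fold enrichment had a Spearman's rho of −0.14, a weak relation given as a description.

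Motifs of the HS factors were about as frequent in summit windows as in the genome. GAANNTTC, 2 inverted GAA units bound by Hsf1, was in 14.7% of the windows (interval 12.6 to 17.1%), against 13.9% of windows tiled over the genome and 15.0% over genes. The same motif followed by a further GAA unit after 2 bases, which contains the former, was in 0.806% against 0.686%, or 8 of 993 windows. CCCCT, the Msn2/Msn4 element, was in 18.1% against 18.2%. Both strands were searched, and a match or its absence says only which letters are in the window.

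Along genes, summits were most frequent in the second part and sparse at the start. The median position was 0.564 of the way from start to stop codon (interval 0.534 to 0.587, 901 pairs of a summit and a gene, 4 summits lying in a pair of overlapping genes). With genes cut into 10 parts of equal length, the first part held 42 summits (4.66%, interval 3.38 to 6.25%) and the last 72 (7.99%, 6.30 to 9.96%), where an even spread would put 10% in each. The part from 70 to 80% of the gene held the most, 124 (13.8%, 11.6 to 16.2%). The mean GC content of genes differed little between the 10 parts, from 39.4 to 40.8%, and was highest in the first, where summits were fewest. In genes of 2 kb or more the median was 0.549 and in shorter ones 0.581. The median distance was 1156 bp to the start codon and 818 bp to the stop codon. In *tho*, where the list holds other peaks from other libraries, the median was 0.773 and the last part held 32.3% of summits.

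**Figure D3:**
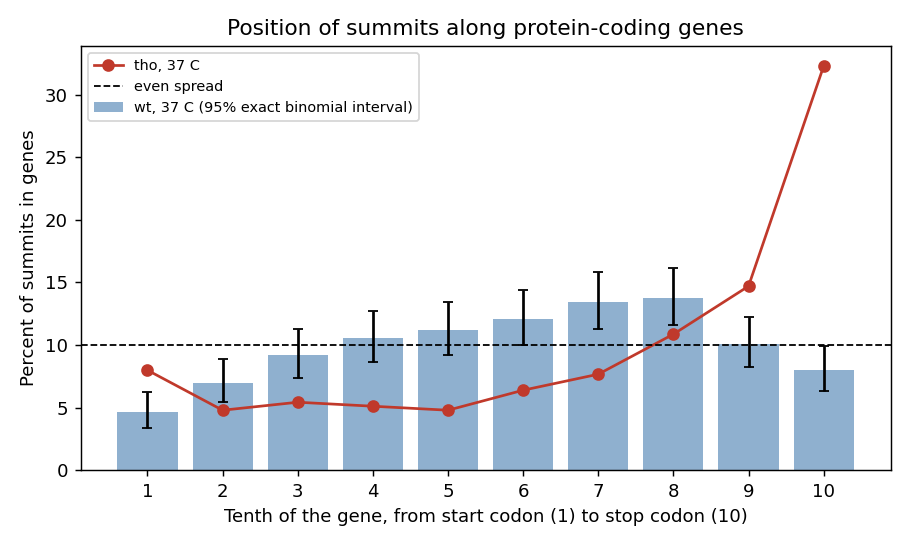
Percent of summits in each of 10 equal parts of the gene they lie in, from start to stop codon, for *wt* (bars with 95% exact binomial intervals, 901 pairs) and *tho* (line, 313 pairs), with an even spread as the dashed line. The *wt* bars go from 4.66% in the first part to 13.8% between 70 and 80% of the gene and 7.99% in the last, and the *tho* line reaches 32.3% in the last.

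Contacted genes were long. Their median length was 1933.5 bp (interval 1830 to 2079 bp), against 1119 bp for genes without a summit. The share contacted was 4.82% of 893 genes up to 500 bp, 15.8% of 914 genes from 1500 to 2000 bp, 36.9% of 203 genes from 4000 to 6000 bp and 62.2% of the 37 genes over 6000 bp. Per length the differences were smaller. Summits per 100 kb of gene were 6.86 from 500 to 1000 bp, 10.3 from 1500 to 2000 bp and 15.5 over 6000 bp, but also 14.6 in genes up to 500 bp, among them the *PAU* genes. Genes over 4000 bp were lower in GC content (median 38.3% and below) than genes up to 500 bp (40.8%).

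**Figure D4:**
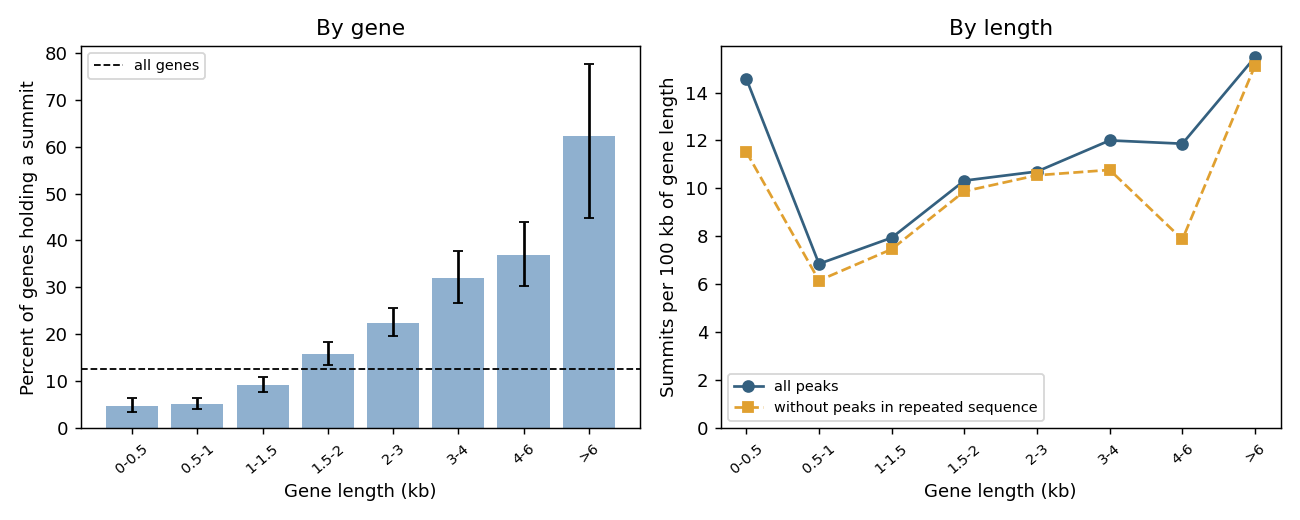
Left, percent of protein-coding genes holding a summit by gene length in kb, with 95% exact binomial intervals and the share over all genes (12.7%) as the dashed line. Right, summits per 100 kb of gene length in the same classes with all peaks and without peaks made mostly of repeated 75-mers. The share goes from 4.82% to 62.2% with length, and the density from 14.6 through 6.86 to 15.5.

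*IRA2*, which encodes a GTPase-activating protein of Ras, held the most summits of any gene, 6 over 9240 bp. They lay at 8.8, 17.8, 32.1, 55.3, 66.4 and 76.8% of the gene, with fold enrichments between 1.83 and 2.11. *TRA1*, a scaffold subunit of the SAGA and NuA4 acetyltransferases, had 5 (1.55 to 2.24), and *FAS1*, a fatty acid synthase subunit, had 5 (1.52 to 1.85). *ACC1*, acetyl-CoA carboxylase, had 4 (1.67 to 2.0). *SEN1*, a helicase known to unwind RNA:DNA hybrids at the end of transcription, also had 4, the highest of them at 63.9% of the gene (2.34), within the stretch printed above. The subtelomeric *YRF1-6* had 5, all in repeated sequence. Another 13 genes had 3 each. Outside repeated sequence these were *STT4*, a phosphatidylinositol kinase (1.54 to 2.01), *FKS1*, a glucan synthase (1.66 to 2.17), *CHC1*, the clathrin heavy chain (1.62 to 1.81), the Mediator gene *GAL11* (1.71 to 1.83) and the cell wall gene *HPF1* (1.44 to 1.70). *FLO5* was mostly repeated at 1 of its summits. The others, *YRF1-1*, *YRF1-3*, *YRF1-4*, *YRF1-7*, YJL225C, YEL077C and YLL066C, were subtelomeric genes whose peaks were all mostly repeated sequence. Summits of 1 gene share a locus and are not independent contacts.

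The strand and the neighbours of contacted genes were compared next. Genes with a tandem neighbour at the 5′ side were contacted in 13.2% of cases and those with a divergent one in 12.2%, and at the 3′ side the shares were 12.8% with a tandem and 12.0% with a convergent neighbour. Each of these lay within the interval of its counterpart. At the 5′ side this did not hold at q under 0.01, where the shares were 8.98 and 7.88% (interval of the latter 6.96 to 8.89%), or with all deposited peaks, where they were 17.0 and 14.7% (13.4 to 15.96%). At the 3′ side it did not hold with all deposited peaks, where the shares were 16.2 and 14.8% (interval of the latter 13.6 to 16.1%). Nor did it hold there with the nearest gene, where they were 14.1 and 12.7% (11.6 to 13.97%). Of summits in genes, 52.3% were in genes on the forward strand (interval 49.0 to 55.6%), which hold 50.7% of gene length.

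Functions of the contacted genes were read from 39 gene lists, 28 of which lay above the background of 12.7%. The lists were chosen with earlier results of these data known, and the background is not matched to them for gene length. HS chaperone genes had the largest share after the *YRF1* genes of the chromosome ends, described below. Of 28 Hsf1-dependent chaperone and cofactor genes, 18 held a summit (64.3%, interval 44.1 to 81.4%), and they had 58.1 summits per 100 kb against 10.2 over all genes. Their median gene GC content was 41.5%, against 39.7% over all genes. *HSP82*, the inducible Hsp90, had 2 summits, of fold enrichment 2.76 at 97.6% of the gene and 2.46 at 16.7%. *CPR6*, an Hsp90 co-chaperone, reached 2.52 at 83.7%, and the Hsp70 gene *SSA3* reached 2.5 at 93.9% with a second summit of 1.99 at 26.3%. The Hsp40 gene *SIS1* reached 2.17 at 44.6%. Lower values were found at the transcriptional coactivator *MBF1* (1.99), the mitochondrial Hsp70 *SSC1* (1.94), the small HS proteins *HSP42* (1.94) and *HSP26* (1.72), the disaggregases *HSP78* (1.89) and *HSP104* (1.87), *SSA2* and *YDJ1* (1.86 each), *HSC82* (1.78), *KAR2* (1.77), *STI1* (1.55), *UBI4* (1.53), *AHA1* (1.52) and *SSA4* (1.45). *SSA4* is also overlapped by the peak centred on *RTT105* (4.4), and the 2 peaks cover 83.9% of the gene. The higher of the 2 *SSA2* summits belongs to a peak mostly of repeated 75-mers. Summits were spread along these genes, from 3.5% in *SSC1* to 97.6% in *HSP82*. Those without a summit were *SSA1*, which the peak centred on *TRN1* covers, and *HSP60*, *HSP10*, *MDJ1*, *FES1*, *BTN2*, *CUR1*, *APJ1*, *SSE1* and *HCH1*. In *tho*, 12 of the 28 held a summit, where 4.70% of all genes did.

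Other genes of stress and folding followed at lower shares. Of 28 Msn2/Msn4 general stress genes, 10 held a summit (35.7%, interval 18.6 to 55.9%). They included *ALD4*, a mitochondrial aldehyde dehydrogenase (2.72), the trehalose synthase subunit *TSL1* (2.36), the cell wall protein *SPI1* (2.17), the hexokinase *HXK1* (2.17) and the glycogen synthase *GSY2* (1.84, at 23.8% of the gene). Of 64 genes annotated to protein folding, 18 did (28.1%, interval 17.6 to 40.8%), including 4 of the 8 subunit genes of the cytosolic chaperonin, *CCT7* (1.83), *TCP1* (1.82), *CCT4* (1.78) and *CCT2* (1.56). These 8 were counted after their values had been seen. Of 13 genes annotated to response to heat, 3 did: the eisosome gene *LSP1* (1.84) and the cell wall sensors *SLG1* (1.72) and *WSC3* (1.53). At q under 0.01 that list was at 7.69%, below the 8.40% of all genes. Of 17 genes known to move to the nuclear periphery when induced, 6 did, namely *HXK1*, *INO1* (2.04), *FIG2* (1.93), *HSP104*, *HSP26* and *SSA4*, and *GAL1*, *GAL10* and *SUC2* did not.

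Genes of the NPC and of mRNA export were also contacted. Of 34 nucleoporin genes, 11 held a summit (32.4%, interval 17.4 to 50.5%), with 14.5 summits per 100 kb and a median gene length of 2208 bp. *NUP157* and *NUP170*, a pair of inner ring genes, had 2 summits each, of fold enrichment up to 2.41 and 1.91. *NUP192* reached 1.88 and *NUP159* and *NSP1* 1.79, and the others, *GLE2*, *NUP60*, *NUP2*, *NUP116*, *GLE1* and *NUP85*, lay between 1.54 and 1.78. In *tho*, 1 nucleoporin gene held a summit (2.94%), where 4.70% of all genes did. Of 18 genes of THO, TREX-2 and mRNA export, 5 held a summit in *wt* (27.8%, interval 9.69 to 53.5%, which includes the background). They were the export receptor *MEX67* (1.99), *NPL3* (1.97), *NAB2* (1.76), *HRB1* (1.66) and *YRA1* (1.64), all of which encode RNA-binding or export proteins. No gene of the THO complex held a summit, and this small group was not compared with the background on its own.

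Cell surface genes formed another group. Of 371 genes annotated to the plasma membrane, 82 held a summit (22.1%, interval 18.0 to 26.7%), led by the osmosensor kinase *SLN1* (2.53), the drug pump *PDR5* (2.42), *OSH2* (2.39) and *HKR1* (2.34). Of 25 flocculin and cell wall mannoprotein genes, 13 did (52.0%), with 39.1 summits per 100 kb, or 28.2 without peaks made mostly of repeated sequence. *FLO5* had 3 summits, of up to 2.49, *FLO11* 1 of 2.34 with a −log10 q of 17.7, *FLO10* 1 of 2.32 and *HSP150* 1 of 2.24. Their median gene GC content was 46.6%. The fungal-type cell wall (18 of 77, 23.4%), transmembrane transport (12 of 52, 23.1%, led by the aquaporin *AQY3* at 2.54), P-type ATPase genes (6 of 16, led by *PMC1* at 2.02), ABC transporter genes (7 of 24, 29.2%, with *PDR5* and, at 1.58, the translation factor *YEF3*) and amino acid permease genes (6 of 23, led by *CAN1* at 2.01) had shares above the background, and hexose transporter genes did not (2 of 20, *HXT10* at 2.01 and *HXT5* at 1.78). The background lay within the intervals of transmembrane transport (12.5 to 36.8%) and of the ABC transporter (12.6 to 51.1%), amino acid permease (10.2 to 48.4%) and hexose transporter genes (1.23 to 31.7%). Per length the ABC transporter genes, with a median of 3937.5 bp, had 9.13 summits per 100 kb, below the 10.2 of all genes, and the amino acid permease genes had 16.5.

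Enzymes and nuclear machines had intermediate shares. Summits were in 6 of 20 glycolytic enzyme genes (30.0%), led by the phosphofructokinase *PFK1* (2.19), and in 19 of 76 genes for ATP hydrolysis (25.0%). Of chromatin remodeller subunit genes 8 of 31 held a summit (25.8%), with the catalytic subunits *INO80* (2.24), *SNF2* (2.14) and *SWR1* (1.93) highest, but per length they had 9.55 summits per 100 kb, below the 10.2 of all genes. Their median length was 2652 bp, against 1200 bp for all genes. Of genes annotated to chromatin remodeling 14 of 75 did (18.7%, 10.3 summits per 100 kb), led by *BDF1* (2.27). Of motor protein genes 4 of 12 did, *KIP2* (1.97), *MYO2* (1.88), *MYO3* (1.81) and *KIP3* (1.79). Of rRNA processing genes 15 of 73 did (20.5%), with *SEN1*, *NOG1* (2.26) and *DRS1* (2.24) highest. Shares nearer the background were those of aminoacyl-tRNA synthetases (4 of 21: *ALA1*, *CDC60*, *ILS1* and *VAS1*), protein kinases (18 of 95, led by *SAK1* at 2.21), proteasome subunits (6 of 32, led by *RPN1* at 1.76, but 6.25% at q under 0.01, below the 8.40% of all genes), DNA-binding transcription factors (4 of 22: *RAP1*, *RDR1*, *STB5* and *HCM1*), regulation of transcription by RNA polymerase II (15 of 93), the vacuole membrane (32 of 213, led by *VAC8* at 2.49) and the endoplasmic reticulum membrane (13 of 128). Per 100 kb, synthetases (9.13 summits), protein kinases (10.0) and the vacuole membrane (10.1) lay below the 10.2 of all genes. Above it lay proteasome subunits (17.2), DNA-binding transcription factors (10.7), regulation of transcription by RNA polymerase II (11.3) and the endoplasmic reticulum membrane (11.7).

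Genes of mitochondrial translation were the least contacted. Of 67 mitochondrial ribosomal protein genes none held a summit (0%, upper limit 5.36%), and of 93 genes annotated to mitochondrial translation only *SLS1* did (1.85). Of 138 cytosolic ribosomal protein genes 11 did (7.97%, interval 4.05 to 13.8%), with *RPL3* (1.96) and *RPL5* (1.91) highest, and of 106 genes of cytoplasmic translation 6 did (5.66%). Ribosomal protein genes are short, and per length the cytosolic ones had 10.7 summits per 100 kb, close to the 10.2 of all genes, and the interval of their share includes the background. RNA polymerase subunits (2 of 31, interval 0.791 to 21.4%, *RPC19* and *RPO21*), ribosome biogenesis (2 of 19, 1.30 to 33.1%, *RRB1* and *TOR2*), DNA repair (6 of 65, 3.46 to 19.0%) and the mitochondrial inner membrane (10 of 117, 4.17 to 15.2%) were also below the background. The interval of each of these includes the background. Of 271 genes with an intron, 29 held a summit (10.7%, interval 7.28 to 15.0%). Their density was 14.8 summits per 100 kb with all peaks and 6.24 without those in repeated sequence, since subtelomeric repeat genes carry introns in the annotation, and that of all genes was 10.2 and 9.19.

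**Figure D5:**
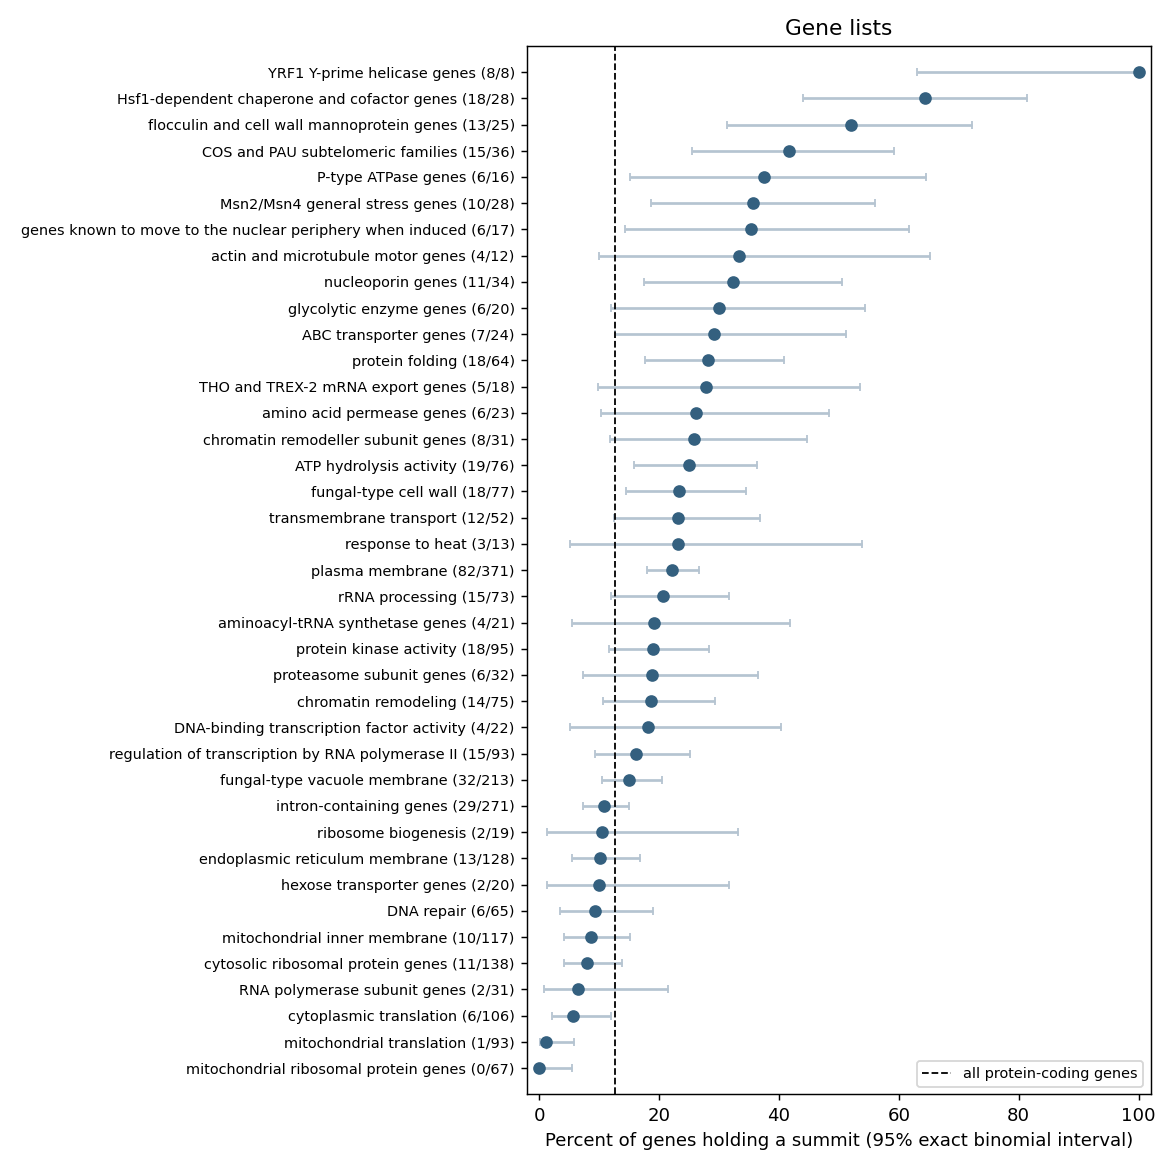
Percent of genes holding a summit in 39 gene lists (points with 95% exact binomial intervals; contacted and total genes in parentheses), with all protein-coding genes as the dashed line. Hsf1-dependent chaperone genes lie at 64.3%, the mitochondrial ribosomal protein genes at 0%, and the *YRF1* genes, all of repeated sequence, at 100%.

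Contacts were dense near chromosome ends. Within 25 kb of an end, which is 6.63% of the nuclear genome, lay 173 of the 993 summits (17.4%, interval 15.1 to 19.9%), and all 32 ends had at least 1. Most of these peaks, 94 of 173, consisted mainly of 75-mers found more than once in the genome, against 18 of the 820 inner ones. Without the peaks made mostly of such sequence the share of summits near ends was 8.97%. Their median fold enrichment was 1.78, against 1.76 for inner peaks. All 8 *YRF1* genes, which encode helicases of the Y′ element, held a summit, 23 in all, none of them outside repeated sequence. Reads from identical copies, such as the *YRF1-7* and *YRF1-3* stretches printed above, cannot be assigned to 1 copy. In the list of *COS* and *PAU* genes, subtelomeric families, 15 of 36 held a summit, and all 15 were among the 24 *PAU* genes, seripauperins of the cell wall, with *PAU19* (2.83), *PAU20* (2.28), *PAU18* (2.21) and *PAU4* (2.21) highest. *PAU17* lies away from the ends, beside *HSP104*, and had 1.72. Without peaks made mostly of repeated sequence the list's share was 19.4% in place of 41.7%. The division into families was made after their values had been seen.

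The widest peaks were of both kinds. Those at YJL225C (3158 bp), YIL177C (2674 bp), *YRF1-7* (2555 bp), *YRF1-2* (2537 bp), YBL113C (2394 bp) and *YRF1-5* (2282 bp) lay in subtelomeric repeats. The others of the 10 widest were *RTT105*, *HSP104* (2585 bp), the peak over *SSA1*, and *NUM1*, a cortical anchor of dynein, with 2259 bp, a fold enrichment of 2.75 and 65.1% of its 75-mers repeated. Over all peaks the median width was 385 bp.

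Chromosomes differed in density. The median over the 16 nuclear chromosomes was 8.09 summits per 100 kb, with the lowest value on chromosome XI (5.10, interval 3.53 to 7.13) and the highest on chromosome I (13.0, interval 8.79 to 18.6). Away from the ends these were 4.05 and 12.2 per 100 kb, so that the extremes were the same chromosomes. Chromosome I had a GC content of 39.3% and chromosome XI of 38.1%, and the part of this difference was not tested. The mitochondrial chromosome had none.

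Neighbouring summits were a median of 6301 bp apart (interval 5815 to 7230 bp), and 408 of 977 neighbouring pairs lay within 5000 bp. More than 25 kb from the ends, the densest stretch of 20 kb held 9 summits, on chromosome XII from *SEN1* to *LSM3*, with 4 of them in *SEN1*. Stretches of 8 summits ran from *EXG1* to *CDA2* and from *NUP2* to *GAS2*, both on chromosome XII and without a contacted chaperone gene. Another 3 included chaperone genes. On chromosome XII, 1 ran from *GPI13* through *HSP104* and *PAU17* to *SSA2* (fold enrichments 1.61 to 2.09), on chromosome XVI 1 ran from *IQG1* through *HSP82* to *FAS2* (1.62 to 2.76), and on chromosome II 1 ran from *BOI1* through *NUP170* to *SSA3* (1.54 to 2.5). In each the chaperone gene had neighbours of other functions that were also contacted. These stretches were singled out after their values had been seen.

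The *tho* list at the same threshold overlapped part of these contacts. Of the 993 peaks, 163 were overlapped by a *tho* peak by 1 bp or more, and the share went from 12.7% of those with a fold enrichment of 1.5 to 1.75 to 62.1% of the 29 at 2.5 or more (interval 42.3 to 79.3%). At the level of genes, 111 held a summit in both lists, which is 14.6% of the *wt* genes and 39.4% of the *tho* genes. The lists come from separate tagged and untagged libraries, and a peak of 1 list with no counterpart in the other was not tested for a difference. Of the 26 peaks with a summit in a tRNA gene, 15 were overlapped.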

How the data were processed

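Of the 6 ChIP-seq samples, the peak lists of 2 tagged libraries were used, that of *wt* at 37 °C with that of *tho* beside it. Paired-end reads were mapped by the authors to sacCer3 with Bowtie2, keeping perfect matches, duplicates were removed with SAMtools, and MACS2 called peaks against the untagged library. The processing notes also name deepTools 3.3.2. The deposited fold enrichment is the value MACS2 gave at the summit for the tagged against the untagged library. Distant loci shared exact values, such as 2.01116 near *STL1* and in *HXT10* and *CAN1*. The value need therefore not be a local ratio of tagged to untagged signal. The deposited −log10 columns hold p and q values. The deposited score (10 times −log10 p, cut to a whole number) was not used for results. The lists give no read numbers, so depth is unknown and limits precision to an unknown extent. The authors' other conditions were not analysed here.

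Peaks with q under 0.05 were placed by summit on 6002 nuclear protein-coding genes, start to stop codon, of the RefSeq R64 annotation, whose genome is the build of the files and the source of all printed sequences. GC content and motifs were read in 300-bp windows. A peak was called mostly repeated when over 50% of its 75-mers recur in the nuclear genome. Intervals are exact binomial or, for medians, from order statistics, at 95%. The members and the 39 gene lists were chosen with earlier results of these data known. Lists came from gene symbols (2 names were found under another symbol and 1 was not matched) and from gene ontology names with experimental evidence, of which 2 matched no gene. Genes named are those at the 10 peaks of highest fold enrichment, of highest −log10 q and of greatest width, the 10 with most summits and those tied with them, those the study names, up to 4 of highest fold enrichment per list (all where 5 or fewer were contacted), and those nearest the threshold. Further members of the chaperone, nucleoporin and stress lists were named after their values had been seen. Alternatives were q under 0.01, all deposited peaks, no repeated peaks, 1 bp overlap or nearest gene in place of the summit, windows of 100 and 600 bp, 50 kb from the end, and genes of at least 2 kb. The code was tested on simulated peaks planted at known positions. Tables were handled with pandas 2.3.3 and numpy 2.4.6, intervals computed with scipy 1.17.1 and plots drawn with matplotlib 3.10.9, under Python 3.11.15.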

Additional observations from a re-analysis of the deposited data

How the results depend on the processing

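With 1 library a side, no replicate could be left out. At q under 0.01, summits in protein-coding genes were 86.8% and contacted genes 8.40%, which for genes with a divergent 5′ neighbour, a tandem 3′ neighbour and a convergent 3′ neighbour became 7.88, 8.36 and 7.85%, and with a tandem 5′ neighbour 8.98%, and 20.7% of summits lay within 25 kb of an end. Without peaks in repeated sequence these shares were 92.2% in genes and 8.97% near ends, and with 50 kb in place of 25 kb the share near ends was 26.3%. The median GC content was 46% in windows of 100 bp and 41% in windows of 600 bp, with genome medians of 38% at both sizes, and the median AT skew in windows of 100 bp was 0.037. The medians of position along the gene and of gene length, the motif shares and the overlap with the *tho* list stayed within their intervals under every alternative run on them. The median density by chromosome was 5.26 per 100 kb at q under 0.01 and 10.3 with all deposited peaks, against 8.09. The Hsf1-dependent chaperone genes held summits in 57.1 to 67.9% of cases. Of the 39 lists, the share moved by more than 1.5 times in 15 at q under 0.01, among them the Msn2/Msn4 genes (21.4%), proteasome subunits (6.25%) and response to heat (7.69%), the latter 2 below the 8.40% of all genes, in 4 with all deposited peaks, in 3 without repeated sequence (the *COS* and *PAU* genes at 19.4%, the *YRF1* genes at 0% and intron-containing genes at 6.64%) and in none when genes were taken by overlap or nearness. The share over all genes itself moved by more than 1.5 times at q under 0.01, from 12.7 to 8.40%, so the move of a list there is to be read against it. Hexose transporter genes lay above the share of all genes at q under 0.01 (10.0 against 8.40%) and with the nearest gene (15.0 against 13.7%).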
